A study of Mus musculus with 8 samples.

Results

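A set of 9 genes known from pancreatic alpha cells was followed in mouse endocrine cells with and without Neurod1: the Iroquois homeobox genes Irx1, Irx2, Irx3 and Irx5, the POU-domain gene Pou3f4, the ETS-family gene Etv1, the amino-acid transporter gene Slc38a5, the transthyretin gene Ttr and the chromatin remodeller gene Smarca1. They were taken by gene symbol, and all 9 had a row among the 23284 genes of the deposited count tables. Cells were from pancreata at embryonic day 17. The Cre deletes floxed Neurod1, a gene for a transcription factor of endocrine cells. In 4 libraries both Neurod1 alleles were floxed (Neurod1floxed/floxed, called KO, replicates 8, 9, 17 and 24), and in 4 libraries only 1 allele was floxed and the other was wild type (Neurod1floxed/wt, called Het, replicates 6, 7, 13 and 19). All 8 carried Neurog3-Cre and a RosaTomato reporter on a strain given as C56BL/J, so the Het cells also carry a floxed allele and the Cre, and no Cre-negative or wild-type cells were compared. The Neurog3 promoter drives the Cre in the shared precursors of all islet cell types, and the sort kept Tomato-positive cells, so each library mixes alpha, beta, delta and other endocrine cells with their precursors. The labels do not say whether a library came from a single embryo or a pool, so p-values measure the spread between these libraries.

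Alpha cells make glucagon and arise, like all islet cells, from Neurog3-positive precursors. Iroquois proteins are homeodomain transcription factors encoded in clusters of neighbouring genes, and Irx1 and Irx2 are known as glucagon-cell factors in the mouse pancreas. Pou3f4 (also called Brn4) binds the glucagon promoter, and Neurod1 is a basic helix-loop-helix factor that binds E-box sequences in islet gene promoters.

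All 7 genes that could be tested had a negative log2 fold change, KO over Het, as did 46.6% of all genes tested, and Irx1 and Etv1 fell past the test (edgeR quasi-likelihood test, adjusted p under 0.05 over all 14116 genes tested). Irx1 fell to 13.5 ± 3.15 CPM (counts relative to the library size, scaled by TMM factors) in KO, against 35.8 ± 11.9 CPM in Het, and Etv1 to 92.5 ± 24.8 CPM in KO, against 223 ± 29.1 CPM in Het (SD, n = 4 each). Irx2, Slc38a5 and Smarca1 did not pass, although each of their KO libraries lay below each Het library, and Ttr and Pou3f4 overlapped between genotypes. Irx3 and Irx5 were at or near 0 in all 8 libraries and were not tested. So 2 of the 7 were called lower, where 0.68% of all tested genes were called lower, 0.34% higher and 1.02% in either direction. For 5 of the 7 the genotypes did not overlap and KO lay below Het, where this held for 4.48% of all tested genes; the opposite, KO above Het, held for 0 of the 7 and for 3.55% of all. DESeq2 and quality-weighted limma-voom each called 5 of the 7 lower (Irx1, Irx2, Etv1, Slc38a5 and Smarca1), and plain limma-voom called Irx2 and Etv1 but not Irx1. Over all genes, DESeq2 called 293 lower, quality-weighted limma-voom 304 and plain limma-voom 120, where edgeR called 96. The median log2 fold change of the 7 was −0.83, beside 0.03 for all tested genes.

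**Figure D1:**
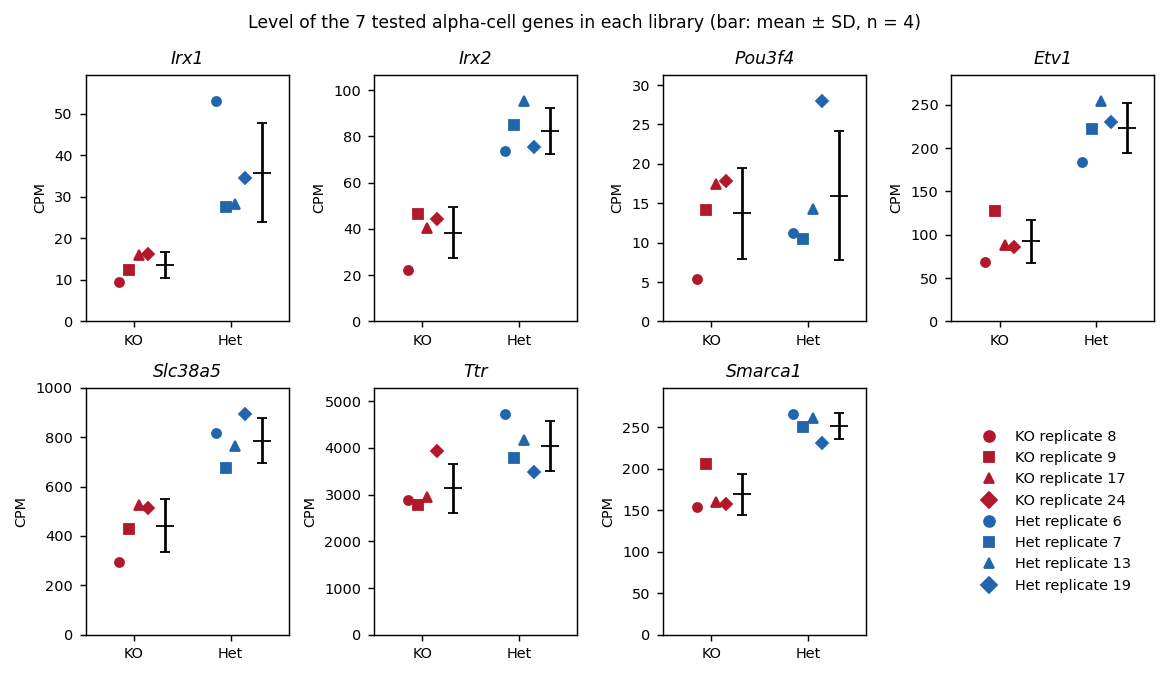
CPM of the 7 tested genes in each KO library (red, left) and each Het library (blue, right), with the mean and SD of 4 libraries beside the points and a symbol for each replicate. KO and Het points are apart for Irx1, Irx2, Etv1, Slc38a5 and Smarca1 and overlap for Pou3f4 and Ttr, and KO replicate 8 is the lowest library in 6 of the 7 panels.

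Libraries held between 10.35 M and 16.1 M counts, and 15443 to 16538 genes were detected in each. Neurod1 itself stood between 2.55 and 22.2 CPM in KO and between 133 and 210.5 CPM in Het, so the targeted gene matched the labels in all 8. The tested pan-endocrine markers were present in every library, with a summed level of 3784 to 7460 CPM in KO and 7420 to 8813 CPM in Het. KO replicate 8 stood apart. The 10 mesenchyme markers summed to 9393 CPM there, against 325 to 475 CPM in the other KO libraries and 230 to 1148 CPM in Het, and it had the lowest summed endocrine level. Acinar markers, which a clean endocrine sort should lack, summed to between 13648 and 46688 CPM in KO and between 10445 and 32614 CPM in Het. Leukocyte markers summed to 452 CPM in KO replicate 8 and 224 CPM in KO replicate 9, against 11.4 to 40.8 CPM in the other KO libraries and 21.9 to 66.4 CPM in Het. Duct markers summed to 526 to 648 CPM in KO and 463 to 621 CPM in Het, and endothelial, erythroid and Schwann or neural-crest markers each to at most 23.2 CPM in KO and 36.7 CPM in Het. Y-linked genes summed to 414 to 497 CPM in KO replicates 8, 9 and 24 and Het replicate 7 and to at most 0.442 CPM in the other 4 libraries, so 3 KO libraries and 1 Het library held male cells. The part of these differences in the results was not tested beyond the values given beside them. A lower level in such mixed cells can mean fewer alpha cells or less RNA in each, and the counts cannot tell these apart.

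Among the Iroquois genes, Irx1 and Irx2 lie in 1 cluster on mouse chromosome 13, and Irx3 and Irx5 in another on chromosome 8. Irx1 had 9.62, 12.4, 15.99 and 16.2 CPM in KO replicates 8, 9, 17 and 24, against 53.1, 27.5, 28.2 and 34.6 CPM in Het replicates 6, 7, 13 and 19. Every KO library was below every Het library, and Het replicate 6 was far above the other Het libraries. KO stood at 0.378 of Het, a log2 fold change of −1.40 with an SE of 0.28 (edgeR quasi-likelihood test, adjusted p = 0.0440). Without KO replicate 8 it was −1.28 (adjusted p = 0.0320). Leaving out any of the other 7 libraries, KO replicates 9, 17 and 24 and Het replicates 6, 7, 13 and 19, ended the call, with adjusted p from 0.0863 to 0.134 and a log2 fold change from −1.51 to −1.15, the smallest without Het replicate 6. With all 8 libraries the call of Irx1 was also lost with total counts (adjusted p = 0.0516), limma-voom (0.0563) and the acinar covariate (0.0686). The same held for the Y-linked covariate (−1.18, adjusted p = 0.212) and for scaling to pan-endocrine markers (−0.92, adjusted p = 0.101).

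Irx2 had 22.3, 46.6, 40.3 and 44.4 CPM in KO replicates 8, 9, 17 and 24, against 73.7, 84.8, 95.3 and 75.4 CPM in Het replicates 6, 7, 13 and 19. KO replicate 8 was the lowest, and the other KO libraries were close to each other and all under the lowest Het library. The log2 fold change was −1.10 with an SE of 0.23 and just missed the threshold (adjusted p = 0.0539). Without KO replicate 8 Irx2 was called lower, with a smaller difference of −0.92 (adjusted p = 0.0130). With any 1 other library left out Irx2 did not pass (adjusted p from 0.109 to 0.189). With all 8 libraries Irx2 was called in 6 of 12 other settings, and Irx1 in 7 of these 12. For Irx2 they include edgeR with no low-count filter (adjusted p = 0.0498) and with a filter of 2 CPM in 4 libraries (0.0485). The log2 ratio of Irx1 to Irx2, the cluster neighbours, was −1.47 ± 0.31 in KO libraries and −1.24 ± 0.58 in Het libraries (mean ± SD of 4). Its difference of −0.23 was within the spread between libraries (p = 0.571 by a two-sided exact permutation of the 70 possible assignments, 0.653 adjusted over 8 ratios) and turned to 0.03 without Het replicate 6.

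Irx3 had 2 counts in KO replicate 8, 2 counts in Het replicate 6 and 0 in the other 6 libraries. Irx5 had 6 counts in Het replicate 7 and 0 in all others. The remaining members of these clusters were as low, with 4 counts of Irx4 in KO replicate 9, 3 counts of Irx6 in KO replicate 8 and 0 elsewhere. A count of 0 allows a level of up to 3 counts, which is 0.219 to 0.270 CPM in the KO libraries and 0.185 to 0.304 CPM in the Het libraries (counting error only). Only Irx1 and Irx2 of the 6 Iroquois genes were therefore measurable here, and nothing can be said about a change of the other 4.

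The promoter windows of these genes, 250 bases before to 50 after the annotated start, are shown because Neurod1 binds E-boxes, and those with the form CAGATG were chosen for printing. RefSeq windows (build GRCm38.p6) were used for 6 of the 9 genes, 7 windows in all, with 2 for Etv1. No window was used for Irx1, Irx5 or Ttr, so the counts that follow do not cover these genes. The E-box CANNTG, which reads the same on both strands, was in 4 of the 7 windows and in 72.3% of all 32851 promoter windows. The form CAGATG, which is 1 kind of CANNTG and reads as CATCTG on the other strand, was in 3 of the 7, against 17.2% of all windows. These are Irx2, 1 of the windows of Etv1, and Smarca1, and the window of the glucagon gene Gcg, shown for comparison, holds 2 copies, where 1.83% of all windows hold 2 or more. Capitals mark every CANNTG, and sequences run 5′ to 3′ on the gene's strand.
Irx2 (chr13:72628570-72628869, plus strand): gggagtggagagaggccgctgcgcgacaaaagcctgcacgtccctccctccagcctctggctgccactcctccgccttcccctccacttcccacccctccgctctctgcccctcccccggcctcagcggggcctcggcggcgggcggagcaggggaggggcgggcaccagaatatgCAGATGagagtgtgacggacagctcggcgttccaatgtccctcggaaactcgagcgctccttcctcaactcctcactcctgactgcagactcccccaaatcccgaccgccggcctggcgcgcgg
Etv1 (chr12:38783461-38783760, plus strand): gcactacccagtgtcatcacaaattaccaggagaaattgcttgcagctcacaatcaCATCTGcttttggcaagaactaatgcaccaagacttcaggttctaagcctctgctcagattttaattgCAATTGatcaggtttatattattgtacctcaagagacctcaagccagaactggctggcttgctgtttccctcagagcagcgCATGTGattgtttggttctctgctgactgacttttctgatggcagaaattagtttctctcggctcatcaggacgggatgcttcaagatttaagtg
Smarca1 (chrX:47892564-47892863, minus strand): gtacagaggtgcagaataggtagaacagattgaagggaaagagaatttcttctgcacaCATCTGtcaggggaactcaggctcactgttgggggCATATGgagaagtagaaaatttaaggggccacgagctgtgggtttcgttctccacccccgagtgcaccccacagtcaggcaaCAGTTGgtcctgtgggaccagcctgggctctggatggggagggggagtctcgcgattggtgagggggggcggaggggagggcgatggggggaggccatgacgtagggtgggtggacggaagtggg
Gcg (chr2:62483604-62483903, minus strand): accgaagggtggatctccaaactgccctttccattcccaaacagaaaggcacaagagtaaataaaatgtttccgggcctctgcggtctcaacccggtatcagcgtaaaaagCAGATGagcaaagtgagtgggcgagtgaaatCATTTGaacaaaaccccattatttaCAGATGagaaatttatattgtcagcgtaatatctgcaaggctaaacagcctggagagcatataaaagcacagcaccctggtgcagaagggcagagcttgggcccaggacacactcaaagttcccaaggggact
This form begins, in either reading, 74 bases before the annotated start in Irx2, 194 in Etv1, 192 in Smarca1, and 139 and 83 in Gcg. The window of Slc38a5 holds 2 E-boxes of other forms, and those of Irx3 and Pou3f4 and the other Etv1 window hold none. A match is a description of these letters and does not show that a factor binds there.

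Etv1 encodes an ETS-family transcription factor of the PEA3 group, and it had the smallest p of the 9 genes. Its level was 68.7, 127, 88.2 and 85.8 CPM in KO replicates 8, 9, 17 and 24, against 184, 223, 254 and 231 CPM in Het replicates 6, 7, 13 and 19. The highest KO library, replicate 9, was well below the lowest Het library, replicate 6. KO stood at 0.415 of Het, which is −1.27 on the log2 scale with an SE of 0.19 (adjusted p = 0.0165). With 1 library left out Etv1 kept its call in 4 of 8 cases and lost it without KO replicate 17 (adjusted p = 0.0570), KO replicate 24 (0.0667), Het replicate 7 (0.0680) or Het replicate 13 (0.0719), with the log2 fold change between −1.46 and −1.16 in all 8 cases. Of its PEA3 relatives, Etv5 averaged 27.2 ± 16.8 CPM in KO and 26.0 ± 2.34 CPM in Het (SD, n = 4 each) and did not pass (log2 fold change 0.06, and −0.46 without KO replicate 8, with adjusted p of 0.965 and 0.383), and Etv4 averaged 0.162 CPM in KO and 0.444 CPM in Het and was not tested.

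Pou3f4, whose product binds the glucagon promoter, was low in both genotypes and differed by less than the spread between libraries. It had 5.39, 14.1, 17.5 and 17.9 CPM in KO replicates 8, 9, 17 and 24, against 11.2, 10.4, 14.2 and 28.0 CPM in Het replicates 6, 7, 13 and 19. The genotypes overlapped widely, with the lowest value in a KO library and the highest in a Het library. The fitted log2 fold change of −0.22 had an SE of 0.43 (adjusted p = 0.886) and became 0.04 without KO replicate 8 and 0.19 without Het replicate 19, so no direction can be given.

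Among the gene products that are not transcription factors, Slc38a5 encodes a transporter of glutamine and other neutral amino acids that is strongly expressed in mouse alpha cells when glucagon signalling is blocked. It had 296, 429, 527 and 515 CPM in KO replicates 8, 9, 17 and 24, against 816, 674, 764 and 893 CPM in Het replicates 6, 7, 13 and 19. All KO values were under all Het values, but the log2 fold change of −0.83, with an SE of 0.19, did not pass (adjusted p = 0.0761). Slc38a5 passed at −0.69 without KO replicate 8 (adjusted p = 0.0337). With any 1 other library left out it did not pass (adjusted p from 0.0991 to 0.221). Related transporter genes differed in both directions. Slc38a4 (log2 fold change −0.45), Slc38a2 (0.34) and Slc38a3 (0.59) overlapped between genotypes and did not pass by edgeR (adjusted p = 0.294, 0.555 and 0.676). The related gene that was called moved opposite to Slc38a5. Slc38a1 rose to 219 ± 23.0 CPM in KO, against 121 ± 8.02 CPM in Het (SD, n = 4 each), a log2 fold change of 0.86 with an SE of 0.13 (adjusted p = 0.0140). Each KO library was above each Het library, as for 3.55% of all tested genes. Slc38a1 was the 1 of 9 tested paralogs of these genes that was called, where 0.34% of all tested genes were called higher. The median log2 fold change of the 9 was 0.18. The call of Slc38a1 held without KO replicate 8 and was lost without any 1 of the other 7 libraries (adjusted p from 0.0513 to 0.0688), with a log2 fold change of 0.80 or more each time. It was also lost with the Y-linked covariate (adjusted p = 0.0798).

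Ttr, which encodes the secreted carrier of thyroxine and of retinol with its binding protein, is abundant in alpha cells and in liver. It had 2876, 2784, 2937 and 3922 CPM in KO replicates 8, 9, 17 and 24, against 4717, 3791, 4171 and 3486 CPM in Het replicates 6, 7, 13 and 19. The genotypes overlapped, since KO replicate 24 was above Het replicates 7 and 19, and the log2 fold change of −0.37, with an SE of 0.17, did not pass (adjusted p = 0.414). Liver RNA was scarce beside these levels. Albumin (Alb) was at 2.19 to 6.78 CPM in KO and 1.68 to 3.14 CPM in Het, and the 6 liver markers with a row summed to 3.72 to 19.5 CPM in KO and 9.42 to 26.0 CPM in Het. Retinol partners did not pass either. Rbp4, the retinol-binding protein gene, averaged 842 ± 228 CPM in KO and 1163 ± 146 CPM in Het (SD, n = 4 each; log2 fold change −0.47, adjusted p = 0.381), and the retinol receptor gene Stra6, with the smallest p of this list of 3, averaged 17.6 ± 16.9 CPM in KO and 5.47 ± 1.93 CPM in Het (log2 fold change 1.69, adjusted p = 0.303). KO replicate 9 stood at 42.1 CPM, and without it the log2 fold change of Stra6 was 0.78 (adjusted p = 0.632). By edgeR 0 of the 3 were called, with 2 at an unadjusted p under 0.05, and DESeq2 and limma-voom called 0.

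Smarca1 encodes SNF2L, an ATPase of the ISWI chromatin remodellers. It had 154, 206, 160 and 157 CPM in KO replicates 8, 9, 17 and 24, against 266, 249.9, 261 and 231 CPM in Het replicates 6, 7, 13 and 19. The Het libraries were close together and all above the highest KO library, replicate 9. The log2 fold change of −0.57, with an SE of 0.13, did not pass (adjusted p = 0.0865), and without KO replicate 8 it was −0.54 (adjusted p = 0.0746). Its ISWI paralog Smarca5 stood at 110.1 ± 19.3 CPM in KO and 113 ± 7.51 CPM in Het (SD, n = 4 each), where the fitted difference of −0.03 on the log2 scale took either sign with 1 library left out (adjusted p = 0.952).

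Y-linked counts differed between genotypes, and Slc38a5, Smarca1 and Pou3f4 lie on the X chromosome, so the difference of mean log2 CPM, KO minus Het, was also taken within the 4 libraries with Y-linked counts (3 KO, 1 Het) and within the 4 without (1 KO, 3 Het). It was −1.15 and −1.22 for Irx1, −1.24 and −1.004 for Irx2, and −1.29 and −1.33 for Etv1. Slc38a5 differed by −0.74 and −0.64, Smarca1 by −0.55 and −0.65, Ttr by −0.26 and −0.48, and Pou3f4 by 0.09 in both. The differences of the first 6 genes were thus below 0 in libraries with and without Y-linked counts. That of Pou3f4 was above 0 in both, unlike its fitted log2 fold change of −0.22 over all 8 libraries. With a single library on 1 side each time, these differences carry no test. With Y-linked expression as a covariate over all 8 libraries 0 of the 7 were called by edgeR, with 5 at an unadjusted p under 0.05 (Irx1 −1.18, adjusted p = 0.212; Etv1 −1.29, adjusted p = 0.0846), and 28 genes were called in all.

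The other alpha-cell genes were mixed. Of 8 listed products of alpha cells, all tested, 1 fell and 0 rose by edgeR, where 0.68% of all tested genes were called lower and 0.34% higher. The median log2 fold change of the 8 was −0.30, beside 0.03 for all tested genes. Gcg, the glucagon gene, fell to 11646.5, 13086, 14076 and 20672 CPM in KO replicates 8, 9, 17 and 24, against 30174, 30242, 30438 and 31502 CPM in Het replicates 6, 7, 13 and 19 (−1.04 on the log2 scale, SE 0.21, adjusted p = 0.0440). The Het libraries hardly differed in it, while KO replicate 24 was well above the other KO libraries. Gcg kept its call without KO replicate 8 or KO replicate 24 and lost it without KO replicate 9, KO replicate 17 or any 1 of the 4 Het libraries (adjusted p from 0.103 to 0.143), with the log2 fold change at −0.98 or below. With all 8 libraries it also lost its call with total counts (adjusted p = 0.0559), no low-count filter (0.0523), the acinar covariate (0.0742), the Y-linked covariate (0.174) and pan-endocrine scaling (−0.56, 0.128). The arginine transporter gene Slc7a2 (−0.81, adjusted p = 0.0666) and Pcsk2 (−0.71, adjusted p = 0.172), which encodes the convertase that frees glucagon from its precursor, did not overlap between genotypes and did not pass by edgeR. DESeq2 and quality-weighted limma-voom called both of them and Gcg, and plain limma-voom called Gcg and Slc7a2. Over all genes these methods called 293, 304 and 120 lower. Without KO replicate 8, 2 of the 8 were called lower, Gcg and Slc7a2, where 1.31% of 14307 tested genes were lower. KO lay below Het without overlap for 3 of the 8, and for 4.48% of all tested genes. Gc (0.003), Tmem27 (−0.26), Dpp4 (−0.28) and Sstr2 (−0.33) overlapped and did not pass. Fap (2.09) also overlapped and did not pass, and turned to −0.58 without KO replicate 8.

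None of the 7 tested alpha-cell transcription factors outside the 9 genes was called by edgeR (1 at an unadjusted p under 0.05; DESeq2 called 1, Isl1, and limma-voom 0), and their median was −0.30. Each of the 7 was lowest in KO replicate 8, and without that library the median was −0.05 over 8 tested. The smallest p was that of Isl1 (−0.57, adjusted p = 0.167), a LIM-homeodomain factor of all islet cells. None of 5 beta-cell fate factors was called by edgeR (1 at an unadjusted p under 0.05; and DESeq2 called 1, Mafa, while limma-voom called 0), with the smallest p for Mafa, at 0.604 ± 0.188 CPM in KO and 3.72 ± 0.957 CPM in Het (adjusted p = 0.0578), and a median of 0.15 over the list. Slc7a2, Pcsk2, Gc, Tmem27, Dpp4, Sstr2, Fap, Rbp4, Alb, Etv5, Etv4, Smarca5, Slc38a2, Slc38a3 and Slc38a4 were named after their values were seen.

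**Figure D2:**
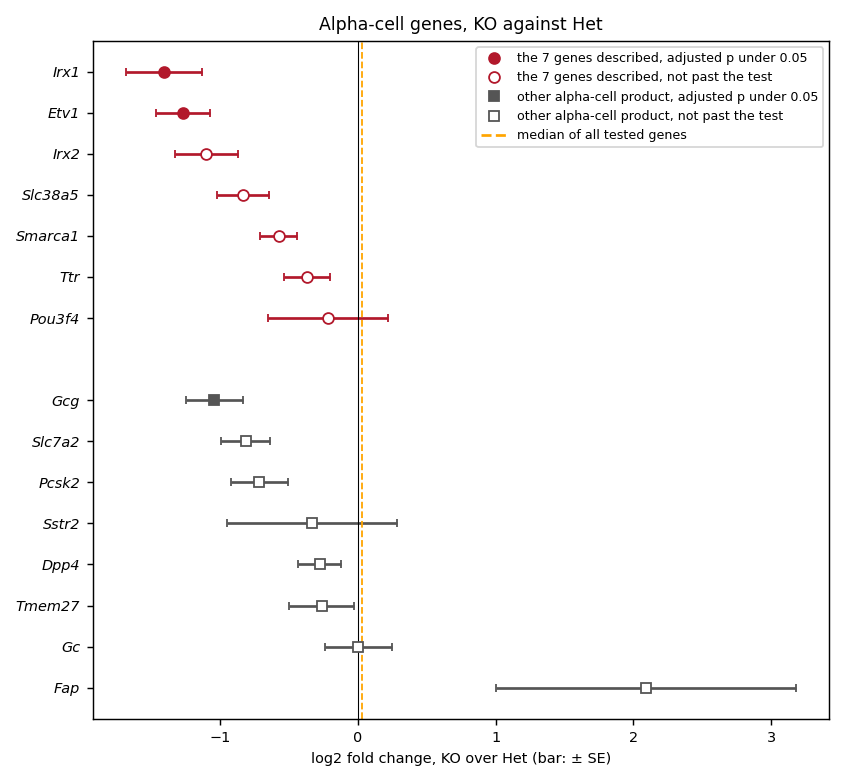
Log2 fold change, KO over Het, with its SE for the 7 tested genes (red) and 8 other alpha-cell products (grey), filled where the adjusted p was under 0.05, with the median of all tested genes as a dashed line. Irx1 and Etv1 lie lowest, Gcg is the only filled grey point, and Fap, at 2.09, rests on KO replicate 8, where it stood at 76.4 CPM.

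The genes were next set against glucagon mRNA in the same library, which asks whether a gene differed by more or less than Gcg and does not depend on library scaling. The log2 ratio of Irx1 to Gcg averaged −10.1 ± 0.24 in KO and −9.78 ± 0.44 in Het, that of Irx2 −8.61 ± 0.40 in KO and −8.54 ± 0.18 in Het, and that of Etv1 −7.33 ± 0.50 in KO and −7.11 ± 0.19 in Het (SD, n = 4). The genotypes overlapped in these 3 ratios, with differences of −0.30, −0.07 and −0.22 (exact permutation tests, two-sided, p = 0.314, 0.8286 and 0.429). Ttr was the exception among the 7 ratios to Gcg. Its log2 ratio averaged −2.23 ± 0.16 in KO and −2.93 ± 0.21 in Het (SD, n = 4), with all 4 KO libraries above all 4 Het libraries, by 0.70 (exact permutation p = 0.0286, the smallest that 70 assignments can give, and 0.229 adjusted over 8 ratios). A single ratio at that smallest p could not pass the adjustment. Smarca1 (0.49), Pou3f4 (0.84) and Slc38a5 (0.22) had differences above 0 that overlapped between genotypes (exact permutation p = 0.114, 0.114 and 0.257).

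**Figure D3:**
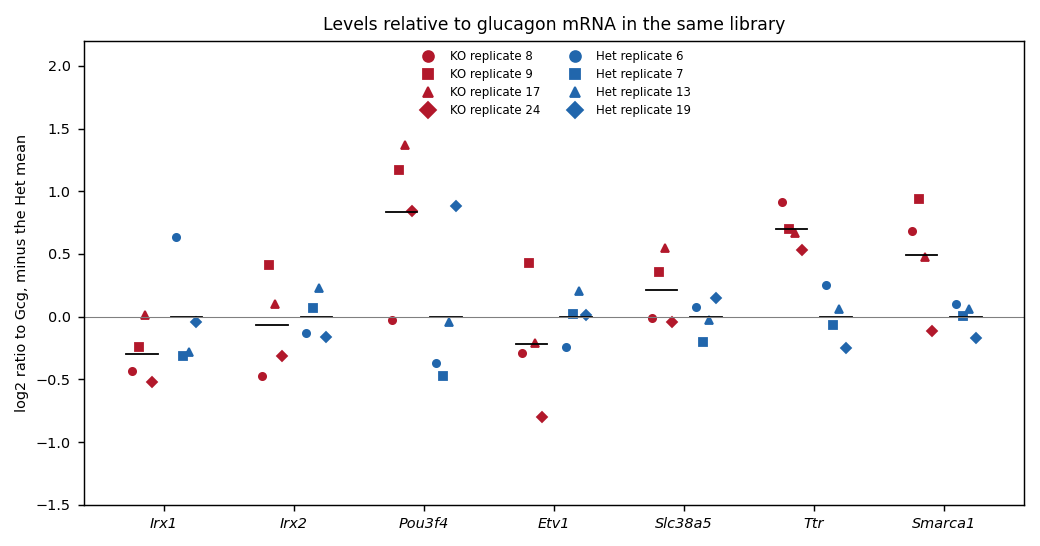
Log2 ratio of each of the 7 genes to Gcg in each library, with the Het mean of that ratio set to 0, for KO (red, left) and Het (blue, right) libraries, with black lines at the group means. Ttr is the 1 gene whose KO points all lie above its Het points, by 0.70 on average, and Irx2 is centred near 0 in both.

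Levels were compared between genes per kilobase of annotated exon. In Het, Ttr was highest of the 9 at 3407 ± 447 CPM per kb, with 2639 ± 449 in KO, beneath Gcg at 9953 ± 2674 in KO and 20475 ± 414 in Het (SD, n = 4). Next came Slc38a5 at 197 ± 47.4 CPM per kb in KO and 351 ± 41.0 in Het, Smarca1 at 27.7 ± 4.01 in KO and 41.2 ± 2.54 in Het, and Irx2 at 11.7 ± 3.37 in KO and 25.1 ± 3.03 in Het. Etv1 followed at 6.96 ± 1.87 CPM per kb in KO and 16.8 ± 2.19 in Het, then Irx1 at 5.17 ± 1.20 in KO and 13.7 ± 4.55 in Het, and Pou3f4 at 4.69 ± 1.98 in KO and 5.45 ± 2.79 in Het. The order from Gcg down to Etv1 held in each of the 8 libraries. Neighbours at the low end were closer, since Etv1 was above Irx1 in 4 of 4 KO and 3 of 4 Het libraries, and Irx1 above Pou3f4 in 3 of 4 KO and 4 of 4 Het libraries. Exon lengths count all annotated isoforms together (13.3 kb for Etv1), which lowers the value of a gene with many.

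The genes whose levels over the 8 libraries ran most like those of the called pair were found by the root mean square difference of centred log2 CPM among 10411 genes of at least 8 CPM. Nearest to Irx1 were Tmem206, at a distance of 0.164, Tmem90a (0.195) and the gene model Gm10941 (0.206). Nearest to Etv1 were Lrrc10b (0.153), Nucb2 (0.199), which encodes the precursor of nesfatin, and the testican gene Spock1 (0.211). The distance is in log2 units. Since Irx1 and Etv1 were lower in each KO library, genes chosen for following them are lower in KO by that choice, and their fold changes are not given as results.

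In the authors' deposited table, 4 of the 9 genes had an adjusted p under 0.05, all lower in KO, where 0.698% of the 18760 genes with an adjusted p there were lower. These were Etv1 (−1.27, adjusted p = 2.67e-06), Irx2 (−1.10, adjusted p = 0.00225), Slc38a5 (−0.83, adjusted p = 0.00330) and Irx1 (−1.41, adjusted p = 0.0172), from the authors' deposited table. The same table gave adjusted p of 0.235 for Smarca1, 0.718 for Ttr and 1 for Pou3f4. These calls come from the same 8 libraries. The same 4 genes were called here without KO replicate 8, where 1.31% of 14307 tested genes were lower.

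**Figure D4:**
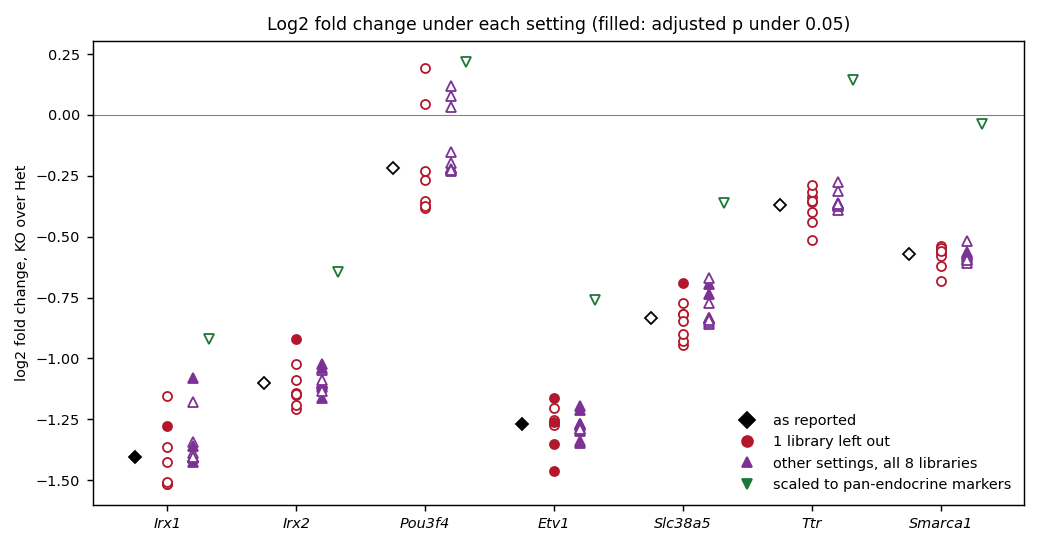
Log2 fold change of the 7 genes, KO over Het, as reported (diamonds), with 1 library left out (circles), under other settings with all 8 libraries (upward triangles) and with libraries scaled to pan-endocrine markers (downward triangles), filled where the adjusted p was under 0.05. Irx1, Irx2, Etv1, Slc38a5 and Smarca1 stay below 0 at every point, and Pou3f4 lies on both sides of 0.

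Scaling the libraries to the 8 pan-endocrine markers in place of all genes, chosen after seeing the data, raised the median of all genes by 0.54 on the log2 scale and left 0 of the 7 called by edgeR, with 3 at an unadjusted p under 0.05. All 8 markers themselves had a negative log2 fold change, and Syp, which encodes the vesicle protein synaptophysin, was called as reported (−0.87, adjusted p = 0.0405) but lost its call when any library except KO replicate 8 was left out (adjusted p from 0.0663 to 0.120). On this scale Irx1 stood at −0.92 (adjusted p = 0.101), Etv1 at −0.76 (0.117), Irx2 at −0.65 (0.127), Slc38a5 at −0.36 (0.172) and Smarca1 at −0.04 (0.908), against a median of 0.57 for all genes, while Ttr was at 0.14 and Pou3f4 at 0.22. Over all genes, 14 were lower and 66 higher on this scale, where the scaling used elsewhere gave 96 lower and 48 higher.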

How the data were processed

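Tomato-positive pancreatic cells of mice at embryonic day 17 were sorted, 2.315 ng of RNA per sample was amplified with the NuGEN Ovation V2 kit and sequenced on a HiSeq2000 in single-end reads of 100 bp, per the labels' protocols. The kit does not mark strand, and copies made by amplification count as separate reads.

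The authors deposited raw counts, whole reads by gene symbol. The genome build was mm9 and the tools named were TopHat2 2.1.0, Cufflinks 2.0.2, bcl2fastq 1.8.4 and DESeq, per the submitters' processing notes. Not given in the sources used here are the program that counted reads, its annotation and the DESeq version. The authors' deposited table of KO against Het holds group means of size-factor-scaled counts (a signal), a fold (ratio), its log2 and p-values, per the file headers.

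CPM values rest on library sizes scaled by TMM. For KO against Het, edgeR 4.0.16 was used (R 4.3.3; filterByExpr with minimum count 10 and minimum total 15; quasi-likelihood F test, two-sided, no covariate; Benjamini-Hochberg over 14116 genes; called at adjusted p under 0.05), and SEs are the log2 fold change over the square root of F. Only Irx3 has an overlapping annotated gene (Irx3os), which has no row. Log2 ratios (prior count 2) were compared by exact permutation over 70 assignments. Ratios of Irx3 and Irx5 to each other and to Gcg, also planned, were left out because both genes were at or near 0. Exon lengths are from GENCODE M21 (GRCm38) and promoter windows from RefSeq, a build other than the files', so the only coordinates given are those of the printed windows in that build. No libraries were identical (lowest chi-square per degree of freedom 19.0), and no column of per-sample values was unmatched (0). The fit was also run on simulated data with larger changes than those of these genes and the same dispersion for every gene, which does not bear on their calls.

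The rule named all 9 genes, Neurod1 and Gcg, the called members of each other list or the 1 with the smallest p, and the 3 genes nearest in pattern to each called gene, and markers of other cells are given as summed levels. Single values of some listed genes are not reported here. Of the marker lists of mesenchyme, acinar, endothelial, leukocyte, erythroid, liver and Schwann or neural-crest cells and the Y-linked genes edgeR called 0 members (unadjusted p under 0.05 for 2, 0, 0, 2, 0, 1, 0 and 0 of them; DESeq2 called Pdgfrb and Csf1r, and limma-voom 0). Of 6 duct markers 1, Cftr, was higher (log2 fold change 2.23, adjusted p = 0.0426 by edgeR), where 0.34% of all tested genes were higher. Cftr lost its call by plain limma-voom (adjusted p = 0.0674) and with the Y-linked covariate (0.130). With 1 library left out it kept its call only without KO replicate 8 or Het replicate 7 (adjusted p otherwise from 0.0825 to 0.164). The genes and lists were chosen with earlier results of these data known. Alternatives were other scalings, DESeq2 1.42.0, limma-voom 3.58.1 without and with quality weights, other filters, mesenchyme, acinar and Y-linked covariates and leaving out each library. Scaling to pan-endocrine markers, lists without KO replicate 8 and values by Y-linked counts were added after seeing the data.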

Additional observations from a re-analysis of the deposited data

Results flagged for a closer look

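In 3 of 18 sets of 4 libraries examined (7 genes, Neurod1 and Gcg, in each genotype), 1 library's gap to its nearest neighbour took more of the range than Dixon's 95% critical value for 4 samples, which chance gives in about 1 in 20 sets. For Ttr in KO the gap was 0.866 of the range, with KO replicate 24 at 3922 CPM above the other KO libraries at 2784 to 2937 CPM. For Smarca1 in KO it was 0.868, with KO replicate 9 at 206 CPM above the others at 154 to 160.4 CPM. For Neurod1 in Het it was 0.896, with Het replicate 19 at 210.5 CPM above the others at 133 to 141 CPM.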

How the results depend on the processing

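With 2 of the 7 tested genes called as reported, 1 was called with total counts and 1 with the acinar covariate (Etv1 in both), 0 with the Y-linked covariate, 0 with pan-endocrine scaling, and 5 each by DESeq2, by quality-weighted limma-voom and with the mesenchyme covariate (Irx1, Irx2, Etv1, Slc38a5 and Smarca1 in these 3). With no low-count filter 3 were called, and 3 with a filter of 2 CPM in 4 libraries (Irx1, Irx2 and Etv1 in both). Over all genes, 144 as reported, the counts were 520 (DESeq2), 500 (quality-weighted limma-voom), 588, 83 and 28 (mesenchyme, acinar and Y-linked covariates) and 80 (pan-endocrine scaling). Leaving out 1 library gave 0 to 4 of the 7 genes and 29 to 285 of all genes, with the most without KO replicate 8 in both. Neurod1 had a log2 fold change of −3.18 with the Y-linked covariate (adjusted p = 0.0748) and −3.68 to −3.06 with 1 library left out (adjusted p up to 0.0732, its call lost without KO replicate 9 or any 1 Het library). Pou3f4 changed sign to 0.031 by quality-weighted limma-voom, 0.078 with the mesenchyme covariate, 0.12 with the Y-linked covariate and 0.22 with pan-endocrine scaling, and ran from −0.38 to 0.19 with 1 library left out. Ttr changed sign only with pan-endocrine scaling, to 0.14. Among the other genes named, quality-weighted limma-voom turned Fap to −0.82 and Etv5 to −0.43, the mesenchyme covariate turned Fap to −0.34 and Etv5 to −0.33, plain limma-voom and the Y-linked covariate turned Etv5 to −0.083 and −0.16, total counts turned Smarca5 to 0.023, and pan-endocrine scaling turned Smarca5 to 0.53 and Rbp4 to 0.014. With 1 library left out these ran from −0.58 to 2.55 for Fap, −0.46 to 0.24 for Etv5 and from −0.16 to 0.016 for Smarca5. With 1 library left out, the log2 ratio difference ran from −0.23 to 0.066 for Irx2 to Gcg and from −0.40 to 0.029 for Irx1 to Irx2. The cause of these changes was not tested, and Gc, Tmem27, Dpp4, Sstr2, Alb, Slc38a2, Slc38a3 and Slc38a4 were not followed through these settings. No ratio passed the adjusted test with a prior count of 0.5 or any 1 library left out. At 10.35 M counts or more, counting error is small for all 7 genes beside the spread between libraries and limits only Irx3 and Irx5. No paired analysis was run, because the labels used give no litter or batch that would link a KO library to a Het library.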
